A study of Mus musculus with 12 samples.

Results

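Complement components and receptors in WT and miR-210 KO macrophages were taken as 9 genes, C1qa, C1qb, C1qc, C3, C4b, Cfb, Cfp, C3ar1 and C5ar1. They were found by matching the Ensembl identifiers of the count tables to mouse symbols, and are 9 of the 56941 genes listed. Each was followed through all 12 libraries. The macrophages were grown from bone marrow monocytes of C57Bl/6J mice, purified by removing other cells with antibodies, and cultured for 7 days in medium conditioned by L929 cells, a fibroblast line that supplies M-CSF. M2 denotes cells then given 20 ng/ml IL-4 for 72 hours, and M0 denotes control cells kept under the same conditions but not given IL-4. Each genotype had 3 libraries in either state. The deletion goes back to floxed mice crossed with Gata-1 Cre mice, both genotypes came from matings of heterozygous animals, and the ages of the mice were not given in the sources used here. No source ties a library to an animal or a culture, so the p-values measure the spread between these libraries, which may be technical.

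Complement is a cascade of plasma proteins that marks microbes and dying cells for uptake. In the classical pathway C1q, built from the C1qa, C1qb and C1qc chains, binds its target and the attached proteases cleave C4 and C2. In the alternative pathway C3 is cleaved by a convertase that contains factor B, the product of Cfb, and properdin, the product of Cfp, stabilizes that convertase. The released fragments C3a and C5a act on the receptors encoded by C3ar1 and C5ar1. The liver makes most of the plasma proteins, whereas macrophages are a main source of C1q and of properdin.

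The targeted gene was examined first. Mir210 was counted 1, 3 and 5 times in WT M0 and 1, 2 and 1 times in WT M2, and it was at 0 in all 6 miR-210 KO libraries. These are counts from long-RNA libraries, not of the mature microRNA. The mature miR-210-3p that the knockout removes is shown because its seed sets which transcripts it can pair with, and the seed, bases 2 to 8, is in capitals (RefSeq, GRCm38.p6, chr7:141221407-141221428, minus strand).
mmu-miR-210-3p: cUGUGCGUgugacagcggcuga
The complement of the seed, ACGCACA, was searched in the 3′ ends downstream of the coding sequence of the canonical transcripts. It was found in 0 of the 9 complement genes and in 724 of 20701 protein-coding genes, or 3.5%. No match says only that these 7 letters are not in those stretches.

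All 9 genes lie on the minus strand (GRCm39). C1qa (ENSMUSG00000036887, chr4:136623223-136626161), C1qc (ENSMUSG00000036896, chr4:136616466-136620376) and C1qb (ENSMUSG00000036905, chr4:136606009-136613511) form a cluster that spans 20153 bases. C4b (ENSMUSG00000073418, chr17:34947354-34962912) and Cfb (ENSMUSG00000090231, chr17:35074852-35081559) lie 111939 bases apart in the major histocompatibility complex, and C3 (ENSMUSG00000024164, chr17:57510964-57535155) lies elsewhere on that chromosome. Cfp (ENSMUSG00000001128) is at chrX:20791688-20797794, C3ar1 (ENSMUSG00000040552) at chr6:122823393-122833122 and C5ar1 (ENSMUSG00000049130) at chr7:15980668-15993465. The counts of C4b and Cfb are the least certain of the 9. Of the 50-base stretches of the C4b transcript, 34.8% also occur in its neighbour C4a, which had at most 17 counts in a library. Of those of Cfb, 65.3% also occur in Gm20547, an overlapping gene on the same strand that was at 0 in all libraries, so reads from shared exons may have been left out of the Cfb count.

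Promoters of 6 of the 9 genes were present in the RefSeq table used (GRCm38.p6, 250 bases before and 50 bases after the gene start), and those of C1qa, C4b and Cfb were not. They were searched on both strands for 4 letter patterns. TTCNNNNGAA, the spacing favoured by STAT6, the factor that IL-4 activates, was in 0 of 6 promoters and in 6.95% of 32851 promoters. TTCNNNGAA, the spacing of other STAT factors, was in 0 of 6 and in 8.3% of all. GAAANNGAA, a core of the interferon response element, was in 1 of 6 and in 8.56% of all. GAGGAAGT, a core bound by the macrophage factor PU.1, was in 1 of 6 and in 3.2% of all. The 2 matches lay in different promoters, so none overlapped another, and a match describes letters and not a bound site. The promoters of C1qb and C1qc are shown because the levels of these chains ran closest together over the libraries, that of C3 because C3 rose with IL-4, and that of C5ar1 because C5ar1 fell. Capitals mark the pattern found, which is on the opposite strand at position -195 in C1qc (PU.1 core) and at position -66 in C5ar1 (interferon element core).
C1qb promoter, chr4:136886151-136886450, minus strand: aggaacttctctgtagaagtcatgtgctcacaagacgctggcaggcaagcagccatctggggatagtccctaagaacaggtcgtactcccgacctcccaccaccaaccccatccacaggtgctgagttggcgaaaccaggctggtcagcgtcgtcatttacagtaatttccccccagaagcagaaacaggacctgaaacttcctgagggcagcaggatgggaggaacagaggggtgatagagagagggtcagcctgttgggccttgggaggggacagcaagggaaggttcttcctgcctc
C1qc promoter, chr4:136892865-136893164, minus strand: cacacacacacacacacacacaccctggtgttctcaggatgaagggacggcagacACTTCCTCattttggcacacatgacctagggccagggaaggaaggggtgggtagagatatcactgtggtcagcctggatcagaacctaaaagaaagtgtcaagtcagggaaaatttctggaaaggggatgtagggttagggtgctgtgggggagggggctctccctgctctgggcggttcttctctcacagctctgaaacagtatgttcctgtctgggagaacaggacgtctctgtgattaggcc
C3 promoter, chr17:57228087-57228386, minus strand: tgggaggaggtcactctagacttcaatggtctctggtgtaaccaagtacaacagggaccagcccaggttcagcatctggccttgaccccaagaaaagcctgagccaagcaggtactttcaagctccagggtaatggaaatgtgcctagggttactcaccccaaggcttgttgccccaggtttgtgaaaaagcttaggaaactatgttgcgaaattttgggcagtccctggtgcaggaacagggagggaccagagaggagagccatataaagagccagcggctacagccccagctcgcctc
C5ar1 promoter, chr7:16259289-16259588, minus strand: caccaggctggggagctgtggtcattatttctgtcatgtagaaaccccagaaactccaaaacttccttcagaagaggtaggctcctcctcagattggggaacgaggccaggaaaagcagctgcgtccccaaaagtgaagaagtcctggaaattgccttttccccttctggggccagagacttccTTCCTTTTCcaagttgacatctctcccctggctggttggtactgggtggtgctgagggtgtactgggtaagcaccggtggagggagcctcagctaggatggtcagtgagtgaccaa

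The libraries held between 7930525 and 10167695 counts. The 9 genes took between 0.623% and 0.885% of the counts of a library, of which the 3 C1q chains took between 0.366% and 0.576%. The IL-4 response of the cultures was checked with Arg1, Retnla, Chil3 and Mrc1. Retnla was at 0 in all 6 M0 libraries and between 271 and 480 CPM in the 6 M2 libraries. CPM are counts scaled to the TMM-normalized size of a library. Arg1 rose by 5.53 ± 0.12 (SE) on the log2 scale in WT and by 4.71 ± 0.11 in miR-210 KO. Its means were 41.1 CPM in WT M0 and 73.6 CPM in miR-210 KO M0, against 1885 and 1930 CPM in M2. Chil3 averaged 0.127 CPM in WT M0 and was at 0 in miR-210 KO M0, against 1739 and 1464 CPM in M2. Mrc1 averaged 1719 and 1648 CPM in M0 of WT and miR-210 KO, against 2628 and 3059 CPM in M2. The 8 macrophage markers were all detected. Their sum lay between 9106 and 10380 CPM in M0 and between 7586 and 8320 CPM in M2, so it was lower in M2 without overlap. In WT below, so were C1qa, C1qb, C1qc, C4b, Cfb, Cfp and C5ar1, and in miR-210 KO the same genes except C1qb and C1qc. Ly6g, Cd3e, Ms4a1, Alb and Ttr, which define neutrophils, T cells, B cells and hepatocytes, were at 0 in every library. The summed neutrophil list (8 genes) reached at most 5.69 CPM, the fibroblast list (7 genes) 2.49 CPM, the erythroid list (4 genes) 4.32 CPM and the mast cell list (4 genes) 0.211 CPM. Neutrophil sums did not overlap in M2, at 2.71 to 5.69 CPM in WT and 1.13 to 1.99 CPM in miR-210 KO. Fibroblast sums did not overlap in M0, at 1.12 to 1.34 CPM in WT and 1.81 to 2.49 CPM in miR-210 KO. Erythroid and mast cell lists were at 0 in every miR-210 KO library. The B, T and NK cell list (7 genes) reached at most 0.495 CPM and the hepatocyte list (3 genes) 0.111 CPM. The summed dendritic cell list (5 genes) lay between 0.413 and 1.32 CPM in M0 and between 11.1 and 19.3 CPM in M2, and the endothelial list (4 genes) between 15.8 and 20.2 CPM in M2. In M0 the endothelial list lay between 31.1 and 39.4 CPM in WT and between 25.1 and 26.2 CPM in miR-210 KO, lower in miR-210 KO without overlap, as were C4b and Cd59a below. The part of these lists in the results below was not tested. Each group also carries its own batch name in the labels, and the effects of batch and of group cannot be told apart.

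Levels of different genes were compared per kb of canonical transcript, on counts scaled by TMM and expressed as CPM per kb. In WT M0 the C1q chains ranked first, with 1422 ± 106 (SD, n = 3) for C1qa, 1081 ± 77.5 for C1qc and 758 ± 46.4 for C1qb. C3ar1, the receptor for C3a, followed with 425 ± 22.8, then Cfp with 247 ± 13.7 and C5ar1 with 167 ± 24.1. The components that the cascade consumes were much lower, with 4.29 ± 0.48 for C3, 3.80 ± 0.86 for C4b and 1.53 ± 0.70 for Cfb. The order of mean levels per kb was the same in the 4 groups. It depends on the transcript lengths used. In CPM without length scaling, the WT M0 means were 2132 for C3ar1, 2002 for C1qc, 1920 for C1qb and 1546 for C1qa. Neighbours in the order overlapped between libraries for C3 and C4b in WT M0, for C1qa and C1qc in WT M2 and miR-210 KO M2, and for C4b and Cfb in miR-210 KO M2. In the other neighbouring pairs of each group the 3 libraries of the higher gene all lay above those of the lower.

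**Figure D1:**
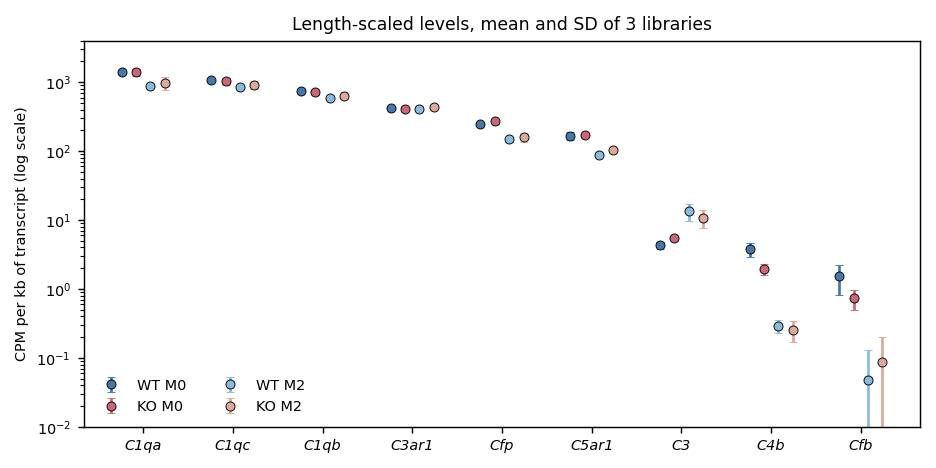
Level of each complement gene in CPM per kb of transcript (log axis), with points for the mean and bars for the SD of the 3 libraries of a group, and SD bars that reach 0 run off the axis. C1q chains lie between 591 and 1422 in every group, whereas C3, C4b and Cfb lie at or below 13.3.

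Most of the 9 genes were lower after IL-4 in WT cells. Between M0 and M2, 7 of the 9 fell, C1qa, C1qb, C1qc, C4b, Cfb, Cfp and C5ar1, C3 rose, and C3ar1 did not pass the test. A call needed an adjusted p under 0.05 in edgeR's quasi-likelihood test, a change of more than 1.2-fold and, for M2 against M0, a mean normalized count over 10 in a protein-coding gene. Of the 14266 genes tested, 18.4% were called higher and 17.0% lower. The median log2 change was -0.67 over the 9 genes and -0.001 over all genes tested. In miR-210 KO cells 5 of the 9 fell, C1qa, C4b, Cfb, Cfp and C5ar1, and C3 rose, where 14.3% of 14331 genes were called higher and 14.0% lower. The median was -0.52 over the 9 genes and -0.008 over all. With a limit of 1 on the log2 change, 3 of the 9 remained called in WT and 2 in miR-210 KO. Over all genes 1446 of 14266 were then called in WT and 1292 of 14331 in miR-210 KO, in either direction. In such bulk samples, fewer cells that express a gene and less RNA per cell cannot be told apart.

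C1qa, the A chain of C1q, was at 1573, 1420 and 1645 CPM in the WT M0 libraries and at 933, 1052 and 911 CPM in WT M2. In miR-210 KO it was at 1678, 1320 and 1566 CPM in M0 and at 1227, 1148 and 815 CPM in M2. All M2 libraries lay below all M0 libraries of the same genotype, and KO M2 library 3 was the lowest of the 12. The log2 change of C1qa was -0.67 ± 0.08 (SE) in WT (adjusted p = 8.5e-06) and -0.52 ± 0.14 in miR-210 KO (adjusted p = 0.0098).

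C1qb, the B chain, was at 1992, 1784 and 1983 CPM in WT M0, 1455, 1596 and 1441 CPM in WT M2, 1933, 1640 and 1889 CPM in miR-210 KO M0 and 1791, 1656 and 1420 CPM in miR-210 KO M2. C1qc, the C chain, was at 2099, 1837 and 2070 CPM in WT M0, 1539, 1717 and 1489 CPM in WT M2, 2078, 1671 and 1984 CPM in miR-210 KO M0 and 1875, 1785 and 1471 CPM in miR-210 KO M2. For both chains the WT groups did not overlap and the miR-210 KO groups did, since KO M0 library 2 lay below 2 of the KO M2 libraries. In WT the log2 changes were -0.35 ± 0.07 for C1qb (adjusted p = 0.0011) and -0.33 ± 0.08 for C1qc (adjusted p = 0.0028). In miR-210 KO they were -0.17 ± 0.10 for C1qb (adjusted p = 0.21) and -0.16 ± 0.11 for C1qc (adjusted p = 0.27). The difference between the genotypes was not past the test for either chain, with an interaction of 0.19 ± 0.13 for C1qb and 0.18 ± 0.14 for C1qc (adjusted p = 0.68 and 0.75).

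The 3 chains did not keep the same proportions. The ratio of C1qb to C1qa, in CPM per kb, was 0.534 ± 0.014 (SD, n = 3) in WT M0 and 0.667 ± 0.014 in WT M2, and 0.515 ± 0.019 in miR-210 KO M0 and 0.665 ± 0.072 in miR-210 KO M2. The ratio of C1qc to C1qa was 0.760 ± 0.022 in M0 and 0.962 ± 0.005 in M2 of WT, and 0.738 ± 0.009 and 0.956 ± 0.089 in miR-210 KO. In neither ratio did an M0 library overlap an M2 library. The ratio of C1qb to C1qc stayed between 0.679 and 0.718 in all 12 libraries. Over both genotypes the mean of the log2 ratio was higher in M2 by 0.34 for C1qb to C1qa and by 0.36 for C1qc to C1qa, against -0.01 for C1qb to C1qc. These ratios were chosen after their values were seen and are given as a description, with no test. Duplicate reads had been removed before counting, which can cap abundant short transcripts such as the 1087-base C1qa, and its part in these ratios was not tested.

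**Figure D2:**
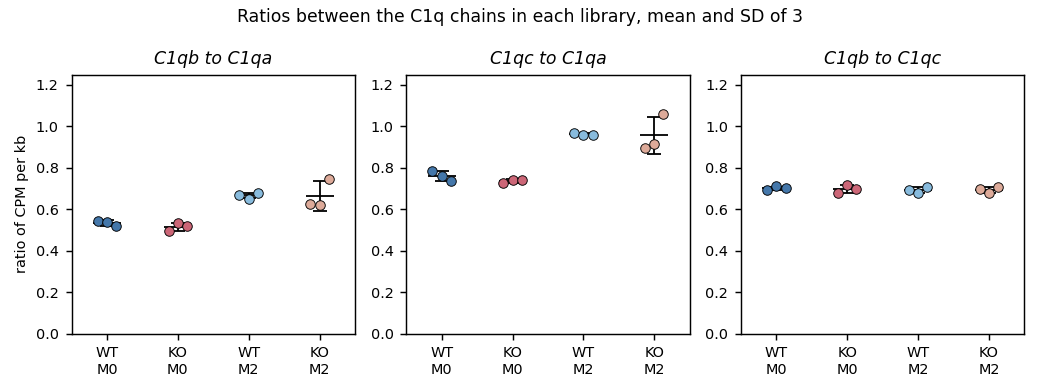
Ratios between the 3 C1q chains (vertical axis, ratio of CPM per kb) in each library of the 4 groups, with bars for the mean and SD of 3 libraries. The ratios of C1qb and C1qc to C1qa are higher in every M2 library than in every M0 library, and the ratio of C1qb to C1qc lies between 0.679 and 0.718 throughout.

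C3, the component on which all pathways converge, was the only gene of the 9 called higher in M2 than in M0. It was at 20.1, 24.9 and 21.3 CPM in WT M0 and at 55.6, 59.2 and 91.1 CPM in WT M2. In miR-210 KO it was at 29.1, 29.0 and 26.8 CPM in M0 and at 73.0, 51.3 and 42.6 CPM in M2. The M2 libraries were all above the M0 libraries and spread more widely. C3 rose 3.1-fold in WT (log2 1.63 ± 0.17 (SE), adjusted p = 2.6e-06) and 1.97-fold in miR-210 KO (log2 0.97 ± 0.16, adjusted p = 0.0004). The interaction was -0.65 ± 0.27 (unadjusted p = 0.026, adjusted p = 0.46), so a smaller rise in miR-210 KO was not shown by the test.

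C4b, which encodes the classical pathway component C4, was at 24.0, 15.3 and 22.6 CPM in WT M0 and at 1.65, 1.90 and 1.24 CPM in WT M2. In miR-210 KO it was at 8.57, 10.6 and 12.3 CPM in M0 and at 1.47, 1.78 and 0.877 CPM in M2. The M2 libraries of both genotypes thus lay at or below 1.90 CPM and every M0 library at or above 8.57 CPM. C4b fell, with a log2 change of -3.66 ± 0.24 in WT (adjusted p = 3e-08) and of -2.90 ± 0.26 in miR-210 KO (adjusted p = 2e-06), and the interaction was 0.77 ± 0.43 (adjusted p = 0.62). C4a, its near-identical neighbour, had between 7 and 17 counts in every library and did not pass the test in any comparison.

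Cfb, which encodes factor B, had the fewest counts of the 9, with 58, 26 and 52 in WT M0 against 4, 0 and 0 in WT M2. The miR-210 KO libraries had 18, 21 and 34 counts in M0 and 6, 0 and 1 in M2. The M0 and M2 counts did not overlap in either genotype. From the summed counts, scaled for library size, Cfb was 32.3-fold lower in WT M2 than in WT M0 (95% exact interval 12.3 to 120) and 9.08-fold lower in miR-210 KO M2 than in miR-210 KO M0 (4.19 to 23.4), where the intervals cover counting error only. The adjusted p was 4.2e-05 in WT and 0.0015 in miR-210 KO. A count of 0 allows up to 3 counts in a library. Without KO M0 library 3 the miR-210 KO call was lost, since the mean count then fell under the limit of 10, with an adjusted p of 0.00588.

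Cfp, which encodes properdin, was at 379, 420 and 415 CPM in WT M0, 220, 265 and 242 CPM in WT M2, 478, 406 and 444 CPM in miR-210 KO M0 and 297, 272 and 218 CPM in miR-210 KO M2. Its log2 change was -0.74 ± 0.08 in WT (adjusted p = 3e-06) and -0.76 ± 0.11 in miR-210 KO (adjusted p = 0.00013). Its interaction of -0.01 ± 0.14 was the smallest in size of the 9. The M0 and M2 libraries of Cfp did not overlap in either genotype.

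The anaphylatoxin receptors did not move together. C5ar1, the main receptor for C5a, was at 368, 490 and 418 CPM in WT M0, 246, 212 and 218 CPM in WT M2, 431, 422 and 458 CPM in miR-210 KO M0 and 254, 260 and 281 CPM in miR-210 KO M2. The M0 and M2 libraries did not overlap in either genotype, and the log2 change was -0.91 ± 0.10 in WT (adjusted p = 4.3e-06) and -0.72 ± 0.08 in miR-210 KO (adjusted p = 8e-06). C3ar1, the receptor for C3a, was at 2217, 2002 and 2176 CPM in WT M0, 2109, 2125 and 1990 CPM in WT M2, 2124, 1893 and 2043 CPM in miR-210 KO M0 and 2178, 2313 and 2131 CPM in miR-210 KO M2. The WT groups overlapped, and the miR-210 KO M2 libraries all lay just above the miR-210 KO M0 libraries. The log2 changes of C3ar1 were -0.03 ± 0.07 in WT (adjusted p = 0.72) and 0.13 ± 0.08 in miR-210 KO (adjusted p = 0.21). The ratio of C3ar1 to C5ar1, in CPM per kb, was 2.59 ± 0.49 (SD, n = 3) in WT M0 and 4.69 ± 0.36 in WT M2, and 2.35 ± 0.13 in miR-210 KO M0 and 4.23 ± 0.35 in miR-210 KO M2.

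**Figure D3:**
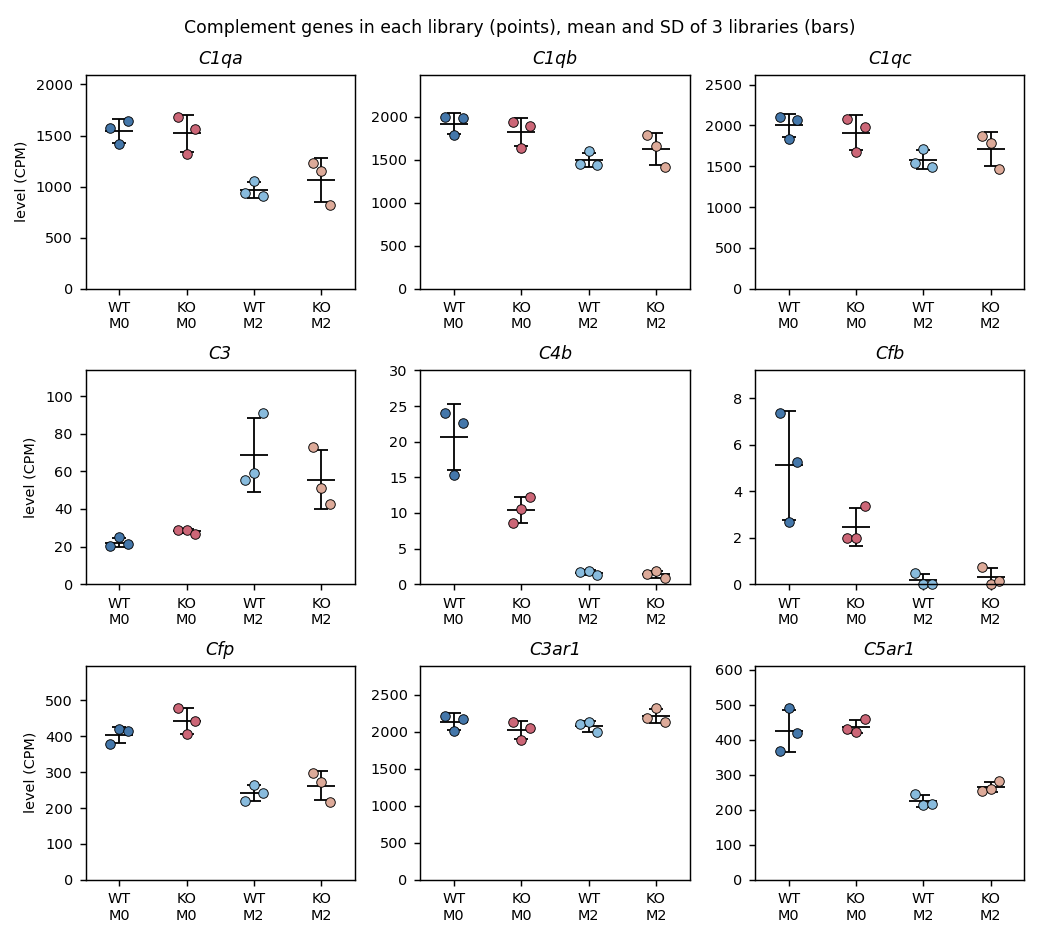
Level of each complement gene in CPM (vertical axes from 0) in the 3 libraries of each group (points), with bars for the mean and SD. C3 is higher in all M2 libraries than in all M0 libraries, C1qa, C4b, Cfb, Cfp and C5ar1 are lower, and C3ar1 lies between 1893 and 2313 CPM in all 12.

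In M0 cells none of the 9 genes passed the test between miR-210 KO and WT. The count of calls was 0 of 9 by edgeR, where 0.461% of the 14089 genes tested were called in either direction. The DESeq2 Wald test called 1 of 9 (C4b), beside 218 of the 14089 genes. At an unadjusted p under 0.05 edgeR had 3 of 9, C4b, Cfb and C3, beside 10% of all genes tested. C4b was lower in all 3 miR-210 KO M0 libraries than in all WT M0 libraries, with a log2 change of -0.97 ± 0.19 (SE) and an adjusted p of 0.054. Across the alternatives its adjusted p ranged from 7.71e-08 to 0.0563, and with each library left out in turn from 0.00278 to 0.29. Without WT M0 library 2, the lowest of its group in C4b and in Cfb, C4b was called (log2 change -1.14, adjusted p = 0.00278), as was Cfb (log2 change -1.33, adjusted p = 0.0405). Calls over all genes rose in that fit too, to 302 of 14360 genes from 65 of 14089.

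Cfb had a log2 change of -1.03 ± 0.36 in miR-210 KO M0 (adjusted p = 0.33), and the groups overlapped at WT M0 library 2. C3 was higher in all 3 miR-210 KO M0 libraries than in WT M0, with a log2 change of 0.35 ± 0.11 (adjusted p = 0.25). The log2 changes of the other 6 genes lay between -0.08 for C3ar1 and 0.13 for Cfp, with adjusted p between 0.7 and 0.96, and their groups overlapped. C1qa, for example, differed by -0.02 ± 0.10.

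In M2 cells 8 of the 9 genes could be tested, since Cfb did not pass the filter on low counts. None of the 8 was called by edgeR or by the DESeq2 Wald test. Over the 13980 genes tested, edgeR called 0.980% in either direction and DESeq2 called 140 genes. At an unadjusted p under 0.05 edgeR had 1 of 8, C5ar1, beside 10.7% of all genes tested. C5ar1 was higher in all 3 miR-210 KO M2 libraries than in WT M2, by a log2 change of 0.24 ± 0.07 (adjusted p = 0.11). C3ar1 was likewise higher in 3 of 3, by 0.09 ± 0.05 (adjusted p = 0.54). C3, which was higher in miR-210 KO M0, had a log2 change of -0.30 ± 0.18 in M2 (adjusted p = 0.61), with overlapping groups. C4b had -0.20 ± 0.33 (adjusted p = 0.9), and the C1q chains and Cfp lay between 0.12 and 0.14 (adjusted p between 0.6 and 0.73). C1qa was called without KO M2 library 3, the library in which it was lowest (log2 change 0.30, adjusted p = 0.011). Calls over all genes rose in that fit too, to 215 of 14236 genes from 137 of 13980.

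Whether the genotypes answered IL-4 differently was tested as an interaction over all 12 libraries. None of the 9 genes was called by edgeR (0% of 14825 genes called) or by the DESeq2 Wald test, which called 92 of all genes. At an unadjusted p under 0.05 edgeR had 1 of 9, C3, and 1327 of all genes. The interaction was positive for C1qa, C1qb, C1qc, C4b, Cfb, C3ar1 and C5ar1, between 0.16 and 1.8, and negative for C3 and Cfp. M2 against M0 in WT, M2 against M0 in miR-210 KO and both comparisons of genotype share libraries, so their values were set side by side and not correlated.

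**Figure D4:**
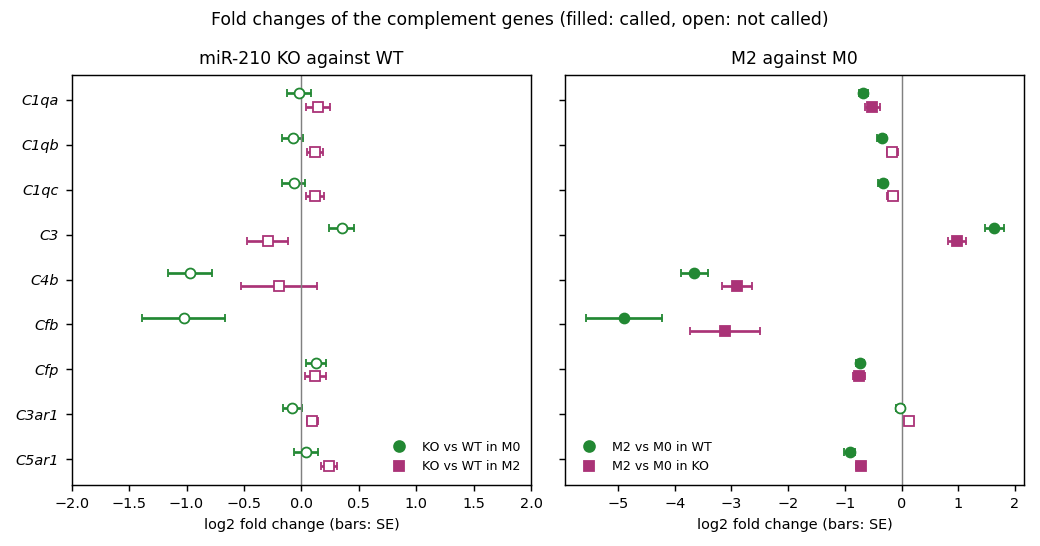
Log2 fold change (horizontal axis, bars for the SE) of each complement gene, miR-210 KO against WT on the left and M2 against M0 on the right, with filled symbols for called genes. All symbols on the left are open, C4b in M0 lies at -0.97, and on the right C3 lies above 0 in both genotypes while C4b and Cfb lie furthest below. Cfb was not tested in KO against WT in M2.

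Across the 12 libraries C1qb and C1qc ran closest together (Pearson r = 0.99 on log2 CPM), with r = 0.964 between C1qa and C1qb and 0.944 between C1qa and C1qc. C3 ran against the other genes, with r from -0.672 with C1qc to -0.914 with C4b, apart from C3ar1 (0.045). These are descriptions over 12 libraries that share 4 groups. Of 11204 protein-coding genes with a mean over 1 CPM, the 5 most like the mean of the C1q chains were Rbfa (r = 0.976), Tnfaip8l2 (0.971), Cnp (0.966), Lgmn (0.964) and Bax (0.959). Lgmn, which encodes the lysosomal protease legumain, averaged 822 CPM in WT and 764 CPM in miR-210 KO M0 cells, against 527 and 571 CPM in M2. The 5 most like C3 were Cd74 (r = 0.972), Adamts14 (0.968), Scarb1 (0.965), Txndc11 (0.965) and Gpr132 (0.963). Cd74, the invariant chain of MHC class II, averaged 33.3 CPM in WT and 44.4 CPM in miR-210 KO M0 cells, against 107 and 83.4 CPM in M2.

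The rest of the pathway was read from a list of 49 other complement genes in 5 roles. Of these, 12 were at 0 in all libraries, 28 had at most 3 counts in every library, and 17 passed the filter in each pair of groups. The terminal components, which build the membrane attack complex, had 6 of 7 genes at 3 counts or fewer, among them Hc, which encodes C5 and was at 0. Mbl1, Mbl2, Cfd and Cfi, which encode mannose-binding lectins, factor D and factor I, were at 0 as well. C2, the partner of C4 in the classical convertase, had between 6 and 12 counts in a library, and C1s1, which encodes a protease of C1, at most 2.

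Among the receptors, 4 of the 6 tested rose with IL-4 in WT and 2 fell, where 18.4% of all genes tested were called higher and 17.0% lower. In miR-210 KO 2 of the 6 rose and 1 fell, beside 14.3% higher and 14.0% lower over all genes. Itgax and Itgb2, which together form complement receptor 4, rose by 7.65 ± 0.12 and 1.41 ± 0.10 on the log2 scale in WT, and by 7.17 ± 0.16 and 1.2 ± 0.08 in miR-210 KO (adjusted p at most 1.7e-07). Itgam, the partner of Itgb2 in complement receptor 3, rose by 0.61 ± 0.09 in WT (adjusted p = 8.6e-05), and C1qbp, a binder of C1q, by 0.68 ± 0.10 (adjusted p = 8e-05). In miR-210 KO the values were 0.20 ± 0.07 for Itgam and 0.24 ± 0.10 for C1qbp, neither called. Itgam had an adjusted p of 0.048 there and missed the call only by the fold limit. Cd93, a surface receptor linked to the uptake of apoptotic cells, fell, with log2 changes of -1.57 ± 0.08 in WT and -1.45 ± 0.08 in miR-210 KO (adjusted p at most 2.3e-08). C5ar2, the second receptor for C5a, fell by 0.32 ± 0.10 on the log2 scale in WT (adjusted p = 0.014), a call lost without WT M0 library 1, WT M0 library 3 or WT M2 library 3 (adjusted p 0.0555, 0.0593 and 0.0716).

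Of the initiators, 3 of 3 tested fell in WT, where 17.0% of all genes tested were called lower, with log2 changes of -2.16 ± 0.18 for C1rl, -0.57 ± 0.10 for Fcna and -0.52 ± 0.11 for C1ra. In miR-210 KO C1rl (-2.02 ± 0.19) and Fcna (-1.01 ± 0.14) fell, and C1ra had -0.16 ± 0.13 (adjusted p = 0.37). C1ra encodes a C1r protease of C1, C1rl encodes a relative of C1r, and Fcna is a lectin pathway ficolin. Among the regulators, 1 of 6 tested fell in WT, against the same 17.0%, Cd55, which speeds the decay of the C3 convertases, with a log2 change of -2.84 ± 0.24. In miR-210 KO Cd55 fell as well (-3.08 ± 0.17), and Cr1l, a mouse regulator of C3 deposition, rose by 0.33 ± 0.08. In WT the log2 change of Cr1l was 0.22 ± 0.065 (adjusted p = 0.014), not called only because of the fold limit. Over the 17 genes tested the median log2 change was -0.16 in WT and 0.02 in miR-210 KO, beside -0.001 and -0.008 over all genes.

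Between the genotypes, Cd59a, an inhibitor of the membrane attack complex, was lower in miR-210 KO in both states. Its level was 29.8, 33.9 and 35.5 CPM in WT M0 and 20.2, 16.9 and 15 CPM in miR-210 KO M0, and at 32.1, 25.7 and 28.4 CPM in WT M2 and 17.2, 20.1 and 15.4 CPM in miR-210 KO M2. The groups did not overlap in either state. The log2 change of Cd59a was -0.93 ± 0.12 in M0 (adjusted p = 0.0072) and -0.69 ± 0.12 in M2 (adjusted p = 0.0067). The M0 call was lost without WT M0 library 3 (adjusted p = 0.0755). Its paralog Cd59b had between 13 and 33 counts in a library, with log2 changes of -0.93 ± 0.32 in M0 and -0.25 ± 0.27 in M2, neither called, and reads of the pair can be hard to assign. In M2 Cd93 was higher in miR-210 KO by 0.31 ± 0.06 (adjusted p = 0.023), and this call was lost without any 1 of 4 libraries, WT M2 libraries 2 and 3 and KO M2 libraries 1 and 2 (adjusted p between 0.0506 and 0.146), and with all 12 libraries in 1 fit (adjusted p = 0.144). These were 1 of the 17 genes tested in M0, beside 0.461% of all genes, and 2 of 17 in M2, beside 0.980%.

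**Figure D5:**
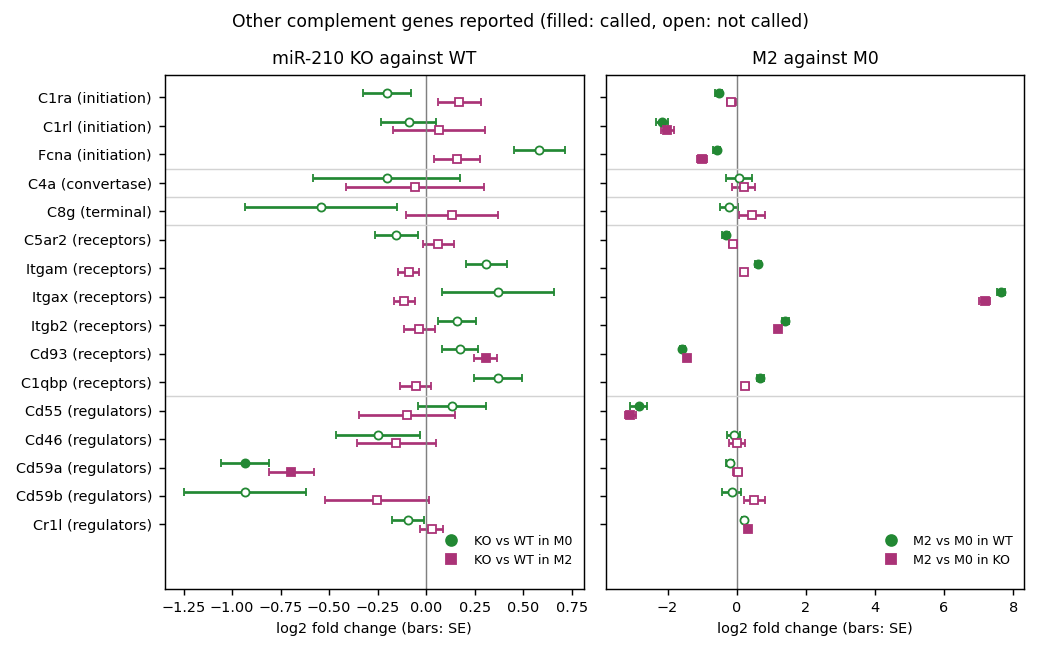
Log2 fold change (horizontal axis, bars for the SE) of the other complement genes that passed the filter and are reported here, grouped by role, miR-210 KO against WT on the left and M2 against M0 on the right, with filled symbols for called genes. Itgax lies at 7.65 in WT, Cd55 at -2.84, and Cd59a is filled in both comparisons of genotype.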

How the data were processed

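RNA of 12 macrophage libraries was depleted of ribosomal RNA and sequenced as stranded pairs. The authors trimmed the reads (Trimmomatic), removed duplicates (Picard), aligned to GRCm39 (STAR) and made stranded counts per gene (featureCounts), which they deposited unnormalized in 4 tables of 56941 genes. The authors also deposited a signal per gene, which is the count over a size factor of its library, and it served here only as an alternative for levels. GENCODE annotation of GRCm39 matched 56323 identifiers, and 618 had no match. Counts were tested with edgeR 4.0.16 in R 4.3.3 (TMM, filterByExpr, quasi-likelihood test, Benjamini-Hochberg (BH) adjustment over all genes tested) within each pair of groups (6 libraries) and over 12 for the interaction, called without a fold limit. Each SE was taken as the size of the log2 change divided by the root of F. Alternatives were DESeq2 1.42.0, other normalization, filters, fold limits and fits, and each library left out.

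The members and lists were chosen with earlier results of these data known. The genes named are all 9 members, every called gene of the complement list except an item not reported here, Mir210, 4 IL-4 markers, cell type markers and the 5 genes most alike. Genes of the list named at or near 0, C4a and Cd59b were chosen after their values were seen. Column names gave the group of each library, and their library numbers are not tied to samples. Libraries within a group were further apart than sampling of reads allows (chi-square per degree of freedom 1.8 to 8.96). Intervals and floors cover counting error only.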

Additional observations from a re-analysis of the deposited data

Results flagged for a closer look

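Itgam, which encodes an integrin chain of complement receptor 3, was flagged because its libraries separated by genotype in opposite directions in the 2 states. It was at 238 to 313 CPM in WT M0 and at 332 to 371 CPM in miR-210 KO M0, so all 3 miR-210 KO libraries were higher. In M2 it was at 409 to 455 CPM in WT and at 393 to 403 CPM in miR-210 KO, so all 3 were lower. Neither comparison of genotype was called by edgeR, with an adjusted p of 0.3 in M0 and 0.61 in M2. The interaction was -0.405 ± 0.122 (SE) on the log2 scale, with an unadjusted p of 0.0043 and an adjusted p of 0.28 by edgeR. The difference thus did not pass the test over all genes. Because the gene was picked by these same values, the unadjusted p is not separate evidence.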

How the results depend on the processing

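The direction of each called member was the same under all alternatives run in M2 against M0. The number of members called in M2 against M0 fell to 3 in WT and 2 in miR-210 KO with a limit of 1 on the log2 change. With each library left out in turn it was 8 to 8 in WT and 5 to 6 in miR-210 KO. In miR-210 KO against WT in M0 the number was 1 with the DESeq2 Wald test, 2 with no filter on low counts, 1 with all 12 libraries in 1 fit and 1 with the library number as a replicate block, against 0 as reported. It was 0 to 2 with each library left out. In M2 it was 1 with no filter (C3, adjusted p = 0.0216) and 0 to 1 with each library left out. The interaction gave 1 with no filter (C3, adjusted p = 0.0013), where 28668 genes were tested in place of 14825. In miR-210 KO against WT in M0, 1 of the other complement genes was called as reported. That number was 2 with DESeq2, 2 with all 12 libraries in 1 fit, 2 with the block and 3 with no filter. With each library left out it was 0 to 2. The cause of these differences was not tested. Over all genes, miR-210 KO against WT in M0 gave 65 calls as reported and 218 with DESeq2, 532 with no filter, 248 with all 12 libraries, 284 with the block and 20 to 302 with 1 library left out. In M2 it gave 137 and 360 with no filter, 60 with all 12 libraries, 289 with the block and 53 to 215 with 1 library left out. The interaction over all genes gave 0 and 92 with DESeq2, 341 with no filter and up to 77 with 1 library left out. Limits of 1 left 27, 40, 1446 and 1292 calls in M0, in M2, in WT and in miR-210 KO.

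Some values that were not called turned sign when 1 library was left out, C1qa (-0.098 to 0.073), C1qc (-0.13 to 0.025) and C5ar1 (-0.054 to 0.165) between genotypes in M0, C4b (-0.443 to 0.026) in M2, and the interactions of Cfp (-0.114 to 0.096) and Cfb (-0.219 to 5.41). Same-numbered libraries correlated between -0.246 and 0.312 in their deviations from the group means, and not every library correlated best with its own number. This check cannot tell whether same-numbered libraries share a culture or a batch, so the replicate block is an alternative only. Cfb in M2, at 0 to 6 counts a library, is too shallow for a comparison of genotypes, and C4b there has 7 to 18 counts. Deposited normalized counts moved the log2 ratio of no member by more than the spread between libraries.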
